A study of Rattus norvegicus with 9 samples.

Results

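Sesn2, Trib3, Stc2, Ddit4 and Aldh1l2 are stress genes that the transcription factor ATF4 is known to switch on, and they were followed here across 3 treatments of 4T1, a mouse mammary carcinoma line kept in culture. They were chosen by name, as the rows of the deposited expression table with these symbols, and all 5 were found among its 2392 genes. Messenger RNA was sequenced in 9 libraries, 3 from cells kept in medium (Control), 3 from cells given nanoparticles of molybdenum disulfide (MoS2) and 3 from cells given the particles and near-infrared light (MoS2_NIR), a photothermal treatment. All cells were of the 1 line, grown in high glucose medium with serum and antibiotics. No group received light without particles, so light was measured only on top of particles. Nothing in the labels ties each library to its own culture, and p-values therefore measure the spread between these libraries, which may be technical. The organism field names the rat, while the line, the genome build mm10 and the gene identifiers are of the mouse, and the genes were read as mouse genes. Dose, exposure time and temperature are not given in the sources used here.

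ATF4 is the main effector of the integrated stress response. Kinases that sense unfolded protein, amino acid shortage, viral RNA or mitochondrial and heme stress phosphorylate the translation factor eIF2, general protein synthesis falls, and the ATF4 message is translated instead. ATF4 then drives genes for amino acid uptake and synthesis, for restraint of the growth kinase mTORC1, and for feedback on the response itself. The 5 genes cover several of these roles: Sesn2 and Ddit4 restrain mTORC1, Trib3 is a pseudokinase that feeds back on ATF4, Stc2 encodes a secreted glycoprotein, and Aldh1l2 encodes a mitochondrial enzyme of folate metabolism. Some of them are known to answer to other factors as well. Sesn2 is a target of p53 and NRF2, Ddit4 of p53, hypoxia and glucocorticoids, and Stc2 of hypoxia.

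The deposited values are scores standardized per gene, and the expression values behind them were recovered for 2390 genes, for 9 of these up to a whole factor only. Their unit is not stated, sequencing depth is unknown, and how the genes of the table were selected is not stated either. In the 1748 genes tested, limma called 46.9% for MoS2 against Control, 97.4% for MoS2_NIR against Control and 87.1% for MoS2_NIR against MoS2, at an adjusted p under 0.05. Across the tested genes the log2 fold change had a median of 0.17, 1.01 and 0.68 in these comparisons. It was -0.09, 0.11 and 0.02 once libraries were scaled by the median of their ratios, a step that takes most listed genes to be steady. That scaling turned the split between higher and lower calls from 526 and 294 to 163 and 569 for MoS2, from 1110 and 592 to 517 and 639 for MoS2_NIR against Control, and from 1078 and 444 to 409 and 610 for MoS2_NIR against MoS2. For the 5 genes, changes are therefore given also as their distance from the median of the table. Control replicate 3 was the lowest Control library for all 5 genes and for 61.2% of all genes tested.

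Sesn2 rose with particles and rose further with light, Trib3 and Stc2 rose with light, Ddit4 fell with light, and Aldh1l2 was lower with light than in Control by a small margin. With particles alone 2 of the 5 genes were called higher and 0 lower, beside 30.1% and 16.8% of all tested genes. For MoS2_NIR against Control 3 were called higher and 2 lower, beside 63.5% and 33.9%, and for MoS2_NIR against MoS2 3 were higher and 1 lower, beside 61.7% and 25.4%. Groups did not overlap for 3 genes that were higher and 0 that were lower with particles alone (36.8% and 20.6% of all tested genes), for 3 and 2 for MoS2_NIR against Control (63.4% and 33.0%), and for 3 and 1 for MoS2_NIR against MoS2 (61.7% and 25.7%). These shares are near the background of a table in which almost every gene differs between the groups with and without light, so the counts are no result about the 5 genes. What the data hold on them is their direction, their size and their place among the other genes.

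**Figure D1:**
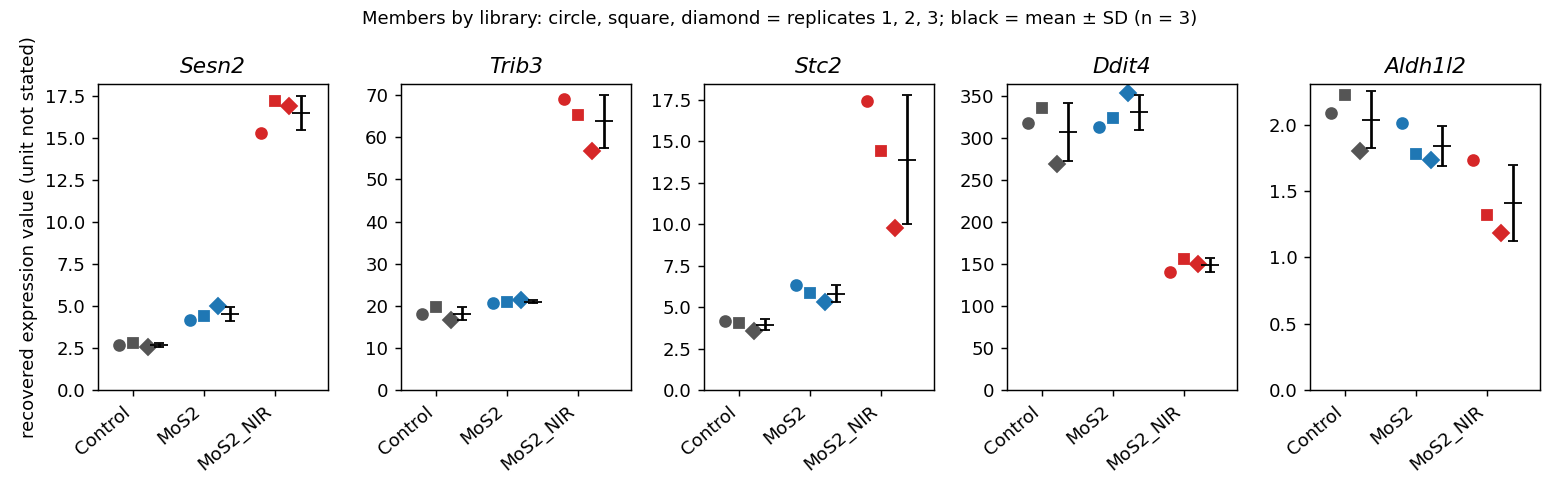
Recovered expression value (y axis, unit not stated, starting at 0) of each of the 5 genes in each of the 9 libraries; markers are single libraries by replicate and black bars the group mean ± SD (n = 3). Sesn2, Trib3 and Stc2 are highest in all 3 MoS2_NIR libraries, Ddit4 is lowest there, and the Aldh1l2 values of MoS2 and MoS2_NIR meet at 1.73.

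Sesn2 (ENSMUSG00000028893) encodes sestrin 2, a leucine-binding protein that holds back mTORC1 when amino acids are scarce. Its values were 2.70, 2.80 and 2.56 in Control replicates 1, 2 and 3, then 4.14, 4.43 and 4.99 with particles alone. The irradiated libraries had 15.29, 17.17 and 16.89. The 3 groups did not overlap, and each step was upward. Counting both directions, 57.4%, 96.4% and 87.4% of all tested genes had no overlap for MoS2 against Control, MoS2_NIR against Control and MoS2_NIR against MoS2. The mean went from 2.69 ± 0.121 to 4.52 ± 0.432 and 16.45 ± 1.01 (SD, n = 3 each). Particles alone thus gave a ratio of the means of 1.68 (log2 fold change of value + 1 of 0.58, SE 0.11, limma adjusted p = 0.00227). Light on top of particles gave a ratio of 3.64 (log2 fold change 1.66, SE 0.11, limma adjusted p = 9.94e-07). Relative to the median of the table these changes were 0.41 and 0.99 on the log2 scale, and 1.23 for MoS2_NIR against Control. After median-ratio scaling the gene was still called higher in all 3 comparisons, with limma adjusted p = 0.0405 for particles alone.

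Ddit4 (ENSMUSG00000020108) encodes REDD1, which also restrains mTORC1, through the TSC complex. The Control libraries read 317.67, 335.49 and 269.35, the MoS2 libraries 313.77, 324.13 and 354.42, and the MoS2_NIR libraries 140.47, 156.05 and 150.21. Control and MoS2 overlapped, and every irradiated library was below every other library. The means were 308 ± 34.2, 331 ± 21.1 and 149 ± 7.87 (SD, n = 3 each). Ddit4 was thus 2.22-fold lower with light than with particles alone (-1.15 on the log2 scale, SE 0.10, limma adjusted p = 3.62e-06) and 2.07-fold lower than in Control (-1.04, SE 0.10, limma adjusted p = 1.79e-06). These changes were -1.82 and -2.05 relative to the median of the table, and only 59 of the 1748 tested genes had a more negative log2 fold change for MoS2_NIR against MoS2. For particles alone the log2 fold change was 0.11 (SE 0.10, limma adjusted p = 0.355), with a 95% interval of -0.10 to 0.32 and a distance of -0.06 from the median of the table. That value has no settled sign: median-ratio scaling gave -0.29 (limma adjusted p = 0.0132) and quantile normalization 0.43 (0.00284).

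Trib3 (ENSMUSG00000032715), whose protein binds ATF4 and the kinase AKT, stood at 18.12, 19.77 and 16.56 in untreated cells. Its values were 20.64, 20.96 and 21.35 with particles and 69.08, 65.40 and 56.85 with particles and light. The 3 MoS2 libraries lay just above the highest Control library, and the irradiated libraries far above both. Group means were 18.1 ± 1.61, 21.0 ± 0.356 and 63.8 ± 6.27 (SD, n = 3 each). With light the level was 3.04 times that with particles alone (log2 fold change 1.55, SE 0.10, limma adjusted p = 1.09e-06), which is 0.88 above the median of the table. With particles alone the log2 fold change was 0.20 (SE 0.10, limma adjusted p = 0.125; 95% interval -0.03 to 0.43), 0.04 from the median of the table, and its sign turned after median-ratio scaling (-0.18, limma adjusted p = 0.109). Of the change from Control to MoS2_NIR, 11.5% was seen in MoS2, where the median over the 1702 genes called in that comparison was 32.1%. The share was 25.9% for Sesn2, 29.8% for Stc2, 28.3% for Aldh1l2 and -10.5% for Ddit4. These shares rest on the same Control libraries in numerator and denominator and are given as a description.

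Stc2 (ENSMUSG00000020303), which encodes stanniocalcin 2, a secreted inhibitor of the protease PAPP-A, was the least even of the genes that rose. Control replicates 1, 2 and 3 had 4.19, 4.05 and 3.57, those of MoS2 6.31, 5.83 and 5.29, and those of MoS2_NIR 17.45, 14.43 and 9.74. The groups did not overlap, and replicate 3 was the lowest library in each of them. The mean with light was 13.9 ± 3.89 (SD, n = 3), a coefficient of variation of 28.0%, against 3.94 ± 0.325 in Control and 5.81 ± 0.51 in MoS2. Light on top of particles gave a ratio of the means of 2.39. The log2 fold change of value + 1 was 1.09 (SE 0.17, limma adjusted p = 0.000176), or 0.42 above the median of the table. This call ended after median-ratio scaling (0.36, limma adjusted p = 0.0809). Against Control the log2 fold change with light was 1.56 (SE 0.17, limma adjusted p = 6.69e-06), or 0.55 above that median.

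For particles alone Stc2 stood at the edge of the threshold, with a log2 fold change of 0.46 (SE 0.17, limma adjusted p = 0.0488), which is 0.30 above the median of the table. The limma adjusted p was 0.0719, 0.0811 and 0.128 without Control replicate 1, 2 or 3, 0.129, 0.101 and 0.0656 without MoS2 replicate 1, 2 or 3, and 0.0620 without MoS2_NIR replicate 2. Median-ratio scaling gave 0.533 and quantile normalization 0.207.

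Aldh1l2 (ENSMUSG00000020256) encodes the mitochondrial 10-formyltetrahydrofolate dehydrogenase, which turns a one-carbon unit of folate into carbon dioxide and makes NADPH. Its values were low: Control had 2.09, 2.22 and 1.80, MoS2 had 2.01, 1.78 and 1.73, and MoS2_NIR had 1.73, 1.32 and 1.18. Control and MoS2 overlapped, and MoS2_NIR replicate 1 equalled MoS2 replicate 3. The means were 2.04 ± 0.215, 1.84 ± 0.149 and 1.41 ± 0.286 (SD, n = 3 each). Only MoS2_NIR against Control was called (log2 fold change -0.34, SE 0.12, limma adjusted p = 0.0219). This call ended without Control replicate 1 (limma adjusted p = 0.0534) or 2 (0.0701) and without MoS2_NIR replicate 2 (0.0637) or 3 (0.0843). For MoS2_NIR against MoS2 the value was -0.24 (SE 0.12, limma adjusted p = 0.0883), and it was called without MoS2_NIR replicate 1 (0.0335) and after median-ratio scaling (0.000289) or quantile normalization (0.000961). For particles alone it was -0.10 (SE 0.12, limma adjusted p = 0.531), and -0.38 after median-ratio scaling (0.0148). Relative to the median of the table, the changes of Aldh1l2 were -1.35 for MoS2_NIR against Control, -0.92 for MoS2_NIR against MoS2 and -0.26 for particles alone. Because 1 is added to values near 2, these log2 changes understate the ratio, which was 0.692 for MoS2_NIR over Control.

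**Figure D2:**
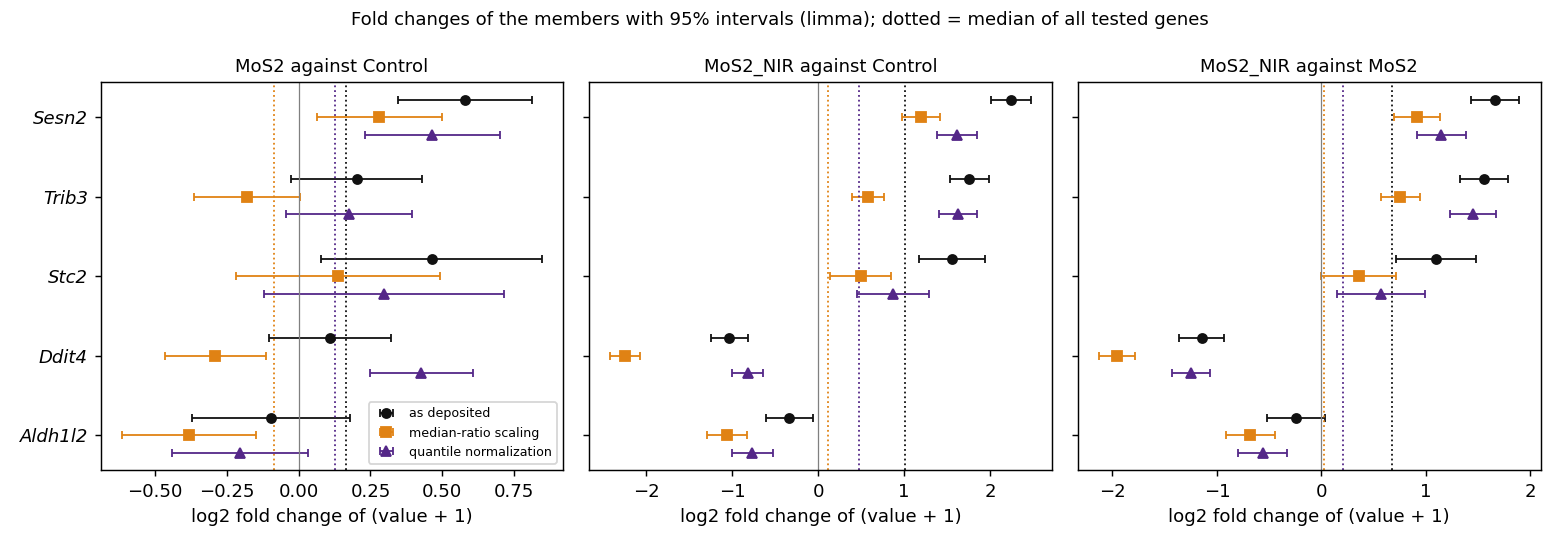
Log2 fold change of (value + 1) with its 95% limma interval (x axis) for each gene in the 3 comparisons, for the values as recovered and after 2 other scalings; dotted lines are the medians of all tested genes in the same colours. For MoS2_NIR against Control, Sesn2, Trib3 and Stc2 lie to the right of the matching median and Ddit4 and Aldh1l2 to the left under each of the 3 scalings.

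Sesn2 and Ddit4, which both restrain mTORC1, moved in opposite directions with light. Their levels were also compared within each library, as the difference between the log2 values of a pair of genes. A single factor per library nearly cancels from such a difference, but quantile normalization does not. The difference of Sesn2 minus Ddit4 was -6.38 ± 0.118 in Control, -5.91 ± 0.0235 in MoS2 and -3.10 ± 0.0209 in MoS2_NIR (SD, n = 3 each). It was thus higher by 0.47 with particles and by a further 2.81 with light, and the 3 groups did not overlap. The step with light was 2.87 under median-ratio scaling and 2.39 under quantile normalization, without overlap. The step with particles was 0.57 under median-ratio scaling, but 0.04 under quantile normalization, where MoS2 and Control overlapped. Sesn2 minus Trib3 went from -2.37 ± 0.0742 to -2.0 ± 0.0887 with particles without overlap, but was -1.89 ± 0.207 with light, where it overlapped MoS2. All 10 pairs were compared in the 3 comparisons: the groups did not overlap in 8 pairs for MoS2 against Control, 9 for MoS2_NIR against Control and 8 for MoS2_NIR against MoS2, or 8, 9 and 7 with no pseudocount. Over all pairs of tested genes 50.1%, 69.0% and 66.0% did not overlap in these comparisons, so most pairs in the table separate. Among the genes that rose, the difference between Trib3 and Stc2 overlapped for MoS2_NIR against Control, as did Sesn2 with Trib3 and with Stc2 for MoS2_NIR against MoS2. Without overlap were Sesn2 with Trib3 (0.48) and with Stc2 (0.68) for MoS2_NIR against Control. Trib3 with Stc2 (0.46) did not overlap for MoS2_NIR against MoS2, but did with no pseudocount. Under quantile normalization Trib3 with Stc2 did not overlap for MoS2_NIR against Control (0.76), while Sesn2 with Trib3 did (-0.02). With 3 libraries against 3, the two-sided exact permutation test cannot go below p = 0.1, so none of the 30 tests could pass 0.05 (lowest Benjamini-Hochberg adjusted p = 0.12 over the 30, exact permutation test).

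Among all 1748 tested genes for MoS2_NIR against Control, 30 had a higher log2 fold change than Sesn2, 151 than Trib3 and 252 than Stc2. At the other end 232 had a lower one than Ddit4 and 607 a lower one than Aldh1l2, so that Aldh1l2 stood among the smallest decreases. For particles alone 221 genes were above Sesn2, 403 above Stc2 and 829 above Trib3, which sat near the middle of the table.

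**Figure D3:**
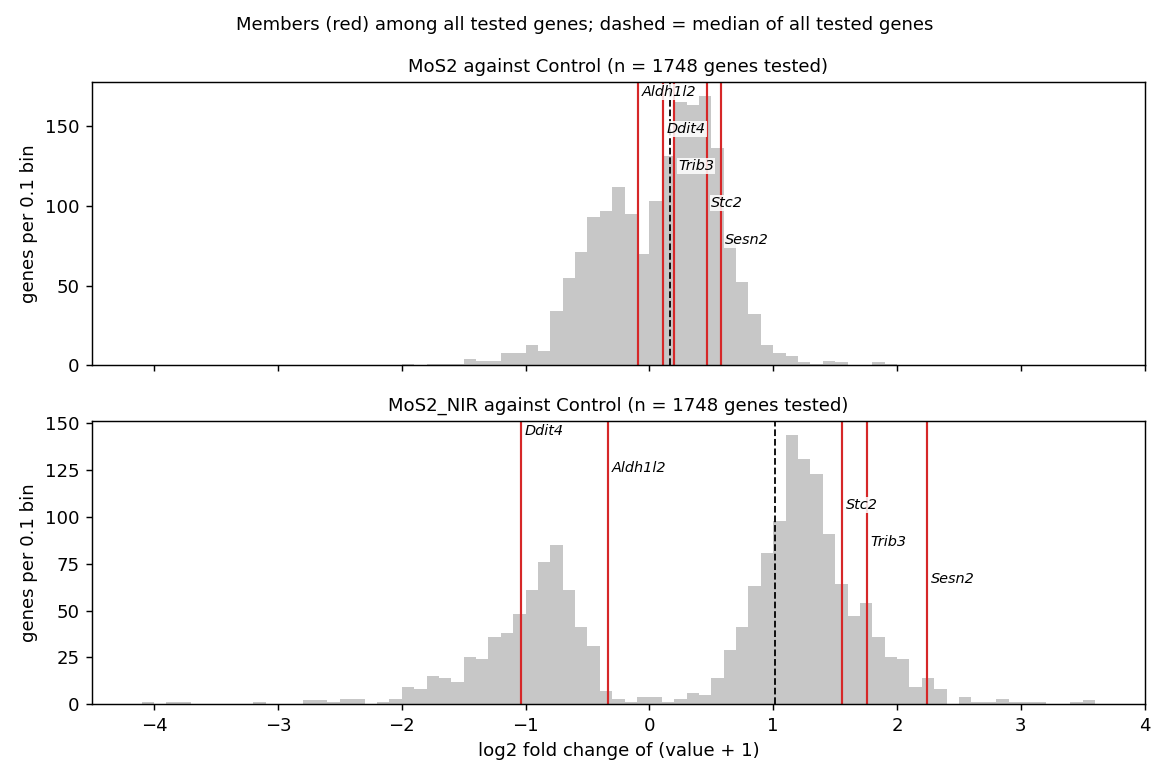
Number of tested genes per bin of 0.1 (y axis) by log2 fold change of (value + 1) (x axis) for MoS2 against Control and MoS2_NIR against Control, with the 5 genes as red lines and the table median dashed. In the lower panel Sesn2 lies in the right tail and Ddit4 within the group of lower genes, and few genes of this selected table lie near 0.

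The genes with the most similar course over the 9 libraries were sought among 1429 other tested genes, leaving out predicted genes, by Pearson's correlation of the deposited scores. Closest to Sesn2 were Lrfn4, Rnd3, Siah2, Dusp5 and Fam222b (r from 0.996 to 0.999). Closest to Trib3 were Ier3, Aggf1, Amigo3, Adrm1 and Sybu (r from 0.993 to 0.9997), and to Stc2 Zfp41, Gtf3c4, Zfp446, Ifrd2 and Nip7 (0.987 to 0.995). Ddit4 was closest to Csf1, Bhlhe40, Efna1, Snai1 and Nfkbia (0.986 to 0.997). Csf1, for example, had means of 122, 143 and 49.8 in Control, MoS2 and MoS2_NIR. Such values are common in 9 libraries that fall into 3 groups: 544 genes had r over 0.95 with Sesn2, 441 with Trib3, 232 with Stc2 and 38 with Ddit4. Aldh1l2 had only 1, Ptprtos (r = 0.964), followed by Icosl, Cfap77, Itga2 and Phyh (0.896 to 0.946). Among the 5 themselves r was 0.981 for Sesn2 and Trib3 and -0.950 for Trib3 and Ddit4. The libraries are shared by all genes, and no test was made of these correlations.

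The other genes of the pathway were called in both directions, as were the genes of the whole table. The 6 lists of the stress response, from eIF2 kinases to aminoacyl-tRNA synthetases, hold 139 symbols besides the 5 genes, with older and newer names of some genes counted separately. Of these 11 were in the table and 10 could be tested. For MoS2_NIR against Control 5 were higher and 5 lower, beside 63.5% and 33.9% of all tested genes, with a median log2 fold change of 0.36 beside 1.01. For particles alone 4 were higher, 3 lower and 3 not called, beside 30.1% higher and 16.8% lower of all tested genes (median 0.08 beside 0.17). With 10 genes, nothing is read from these counts. After median-ratio scaling the counts were 3 higher and 5 lower for light against Control and 1 higher and 5 lower for particles alone. ATF4 itself, Ddit3, Chac1, Asns, the eIF2 kinases and every aminoacyl-tRNA synthetase were not among the genes analysed here.

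Among the transcription factors of the response, Atf3, which ATF4 itself is known to switch on, rose from 5.33 ± 0.622 in Control to 9.92 ± 0.834 in MoS2 and 20.4 ± 5.02 in MoS2_NIR (log2 fold change 0.79 for particles alone, limma adjusted p = 0.00399). The further rise with light (0.95) was not called under median-ratio scaling (0.19, limma adjusted p = 0.329). Ppp1r15b encodes CReP, the constitutive subunit that directs a phosphatase to eIF2. It rose from 8.77 ± 1.37 to 11.6 ± 0.221 with particles (0.38, limma adjusted p = 0.0192) and to 38.0 ± 1.45 with light (2.01 against Control, limma adjusted p = 1.06e-07). The rise of Ppp1r15b with particles was not called after median-ratio scaling (0.02, limma adjusted p = 0.893).

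Of the 4 amino acid transporters tested, 3 were higher with light than in Control, a share near the 63.5% of all tested genes. Slc38a2, the SNAT2 carrier of small neutral amino acids and a known ATF4 target, was 22.8 ± 1.74 in Control, 24.0 ± 1.34 in MoS2 and 68.1 ± 5.17 in MoS2_NIR (log2 fold change 1.47 for light on top of particles, limma adjusted p = 1.09e-06). With particles alone it was not called (0.07, limma adjusted p = 0.574), but was called lower under median-ratio scaling (-0.32, 0.0140). The glutamine carrier Slc1a5 had 17.1 ± 5.47, 26.9 ± 1.34 and 43.9 ± 7.78 in Control, MoS2 and MoS2_NIR. The glycine carrier Slc6a9 had 7.57 ± 1.48, 10.2 ± 0.191 and 19.1 ± 2.52. Both were called higher than in Control with particles alone (limma adjusted p = 0.0283 and 0.0374) and with light (0.000154 and 7.27e-06). After median-ratio scaling neither was called with particles alone (0.196 and 0.787) or with light (0.370 and 0.352). Slc7a7, a carrier of basic amino acids, fell from 2.43 ± 0.287 to 1.42 ± 0.267 with particles and was 1.39 ± 0.171 with light.

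**Figure D4:**
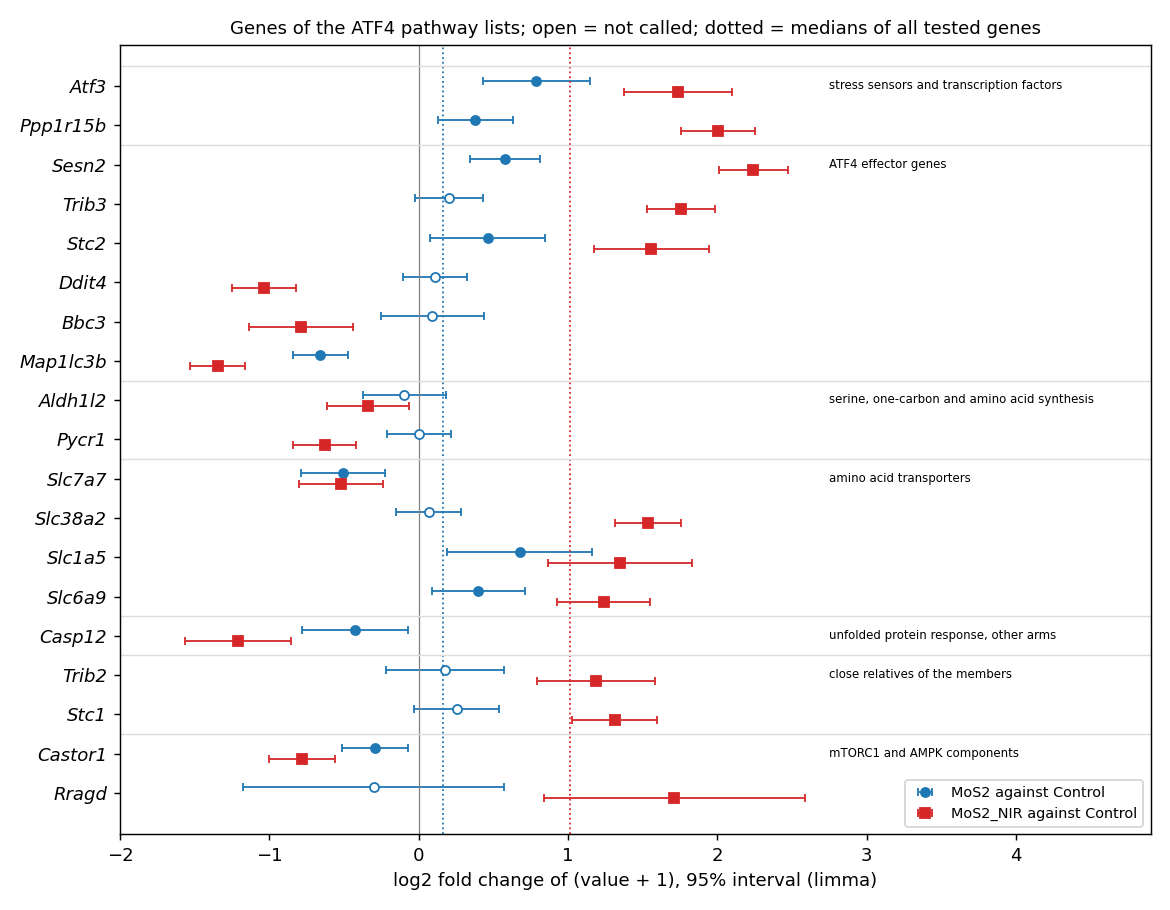
Log2 fold change of (value + 1) with its 95% limma interval (x axis) for the tested genes of the pathway lists, for MoS2 against Control (circles) and MoS2_NIR against Control (squares); open markers are not called and dotted lines are the medians of all tested genes. Ppp1r15b and Sesn2 have the largest increases with light, at 2.01 and 2.24, and Ddit4, Map1lc3b and Casp12 the largest decreases, at -1.04, -1.35 and -1.21.

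The remaining tested genes of the pathway lists, with Bbc3 and Map1lc3b among the known effectors, were lower in MoS2_NIR than in Control. Bbc3, which encodes the cell death protein PUMA, was 20.0 ± 4.16 in Control, 21.2 ± 2.55 in MoS2 and 11.1 ± 1.30 in MoS2_NIR (-0.79 for light against Control, limma adjusted p = 0.000516). Map1lc3b, of the autophagosome protein LC3B, fell with particles already, from 144 ± 2.44 to 90.8 ± 5.49, and on to 56.0 ± 2.83 with light (limma adjusted p = 0.000446 and 1.67e-07 against Control). Pycr1, a proline synthesis enzyme and the only metabolic gene tested besides Aldh1l2, was 23.3 ± 0.973, 23.3 ± 0.845 and 14.7 ± 1.37 in Control, MoS2 and MoS2_NIR (-0.63 for light against Control, limma adjusted p = 7.36e-05). Both metabolic genes were thus called lower in MoS2_NIR than in Control. Against MoS2 Pycr1 was called lower (-0.63, limma adjusted p = 0.000131) and Aldh1l2 was not (-0.24, 0.0883). Casp12, a caspase of the endoplasmic reticulum, went from 6.16 ± 0.786 in Control to 4.31 ± 0.0889 in MoS2 and 2.14 ± 0.70 in MoS2_NIR. Its changes against Control were -0.42 and -1.21 (limma adjusted p = 0.0495 and 2.45e-05). Cdsn, another listed effector, was too low to be tested and was highest with light, at 0.223 ± 0.101, 0.277 ± 0.0681 and 0.887 ± 0.357 in Control, MoS2 and MoS2_NIR.

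Close relatives of 2 of the genes were in the table. Stc1, the other stanniocalcin, was 3.49 ± 0.462, 4.33 ± 0.176 and 10.2 ± 1.53 in Control, MoS2 and MoS2_NIR, and Trib2 was 0.370 ± 0.0400, 0.563 ± 0.275 and 2.18 ± 0.724. Stc1 was called higher with light against Control (log2 fold change 1.31, limma adjusted p = 2.54e-06) and not with particles alone (limma adjusted p = 0.121). Trib2 reached 1 only in the MoS2_NIR libraries, so it passed the filter only through the group where it was high. Its call with light against Control (1.19, limma adjusted p = 6.34e-05) was favoured by that filter and is given as a description. With particles alone Trib2 was not called (limma adjusted p = 0.416). Around mTORC1, Castor1, an arginine sensor that inhibits the complex, fell from 36.8 ± 3.32 to 29.9 ± 2.32 and 21.0 ± 0.276 (limma adjusted p = 0.0330 and 1.75e-05 against Control). Rragd, a GTPase that recruits the complex to lysosomes, rose with light from 21.9 ± 9.25 to 72.0 ± 19.7 by 1.71 on the log2 scale (SE 0.38, limma adjusted p = 0.00234), and was not called under median-ratio scaling (0.53, 0.276).

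Targets of the other factors known to act on these genes are few in the table, and their counts stand beside 63.5% higher and 33.9% lower over all tested genes for MoS2_NIR against Control. Of 5 glucocorticoid targets tested, Ddit4 included, 4 were lower and 1 higher for MoS2_NIR against Control. The higher one was Sgk1, which went from 9.38 ± 1.36 in Control to 10.5 ± 2.89 in MoS2 and 29.7 ± 3.62 in MoS2_NIR. Its log2 fold change with light against Control was 1.57 (limma adjusted p = 6.35e-06), and it was not called after median-ratio scaling (0.42, 0.0523). Tsc22d3, which encodes the glucocorticoid-induced protein GILZ, went from 70.9 ± 1.33 in Control to 67.0 ± 2.60 in MoS2 and 30.8 ± 2.95 in MoS2_NIR (-1.18 on the log2 scale between the outer groups, limma adjusted p = 6.24e-07). Per1 and Lcn2 were lower too, at -1.49 and -2.01 against Control. With particles alone they were already called lower (-0.53 and -0.77, limma adjusted p = 0.0135 and 0.000198). Their step from MoS2 to MoS2_NIR was -0.96 and -1.23. Of 5 hypoxia targets, Ddit4 and Stc2 included, 2 were higher and 3 lower. Egln3, a hydroxylase that acts on the hypoxia factor HIF, was 46.2 ± 4.36, 78.3 ± 4.37 and 164 ± 17.5 in Control, MoS2 and MoS2_NIR. It was called higher than in Control with particles alone and with light (limma adjusted p = 0.000743 and 1.4e-07). Adm, the adrenomedullin gene, was 75.1 ± 6.40, 71.4 ± 5.49 and 36.4 ± 2.49 (limma adjusted p = 2.71e-06 for light against Control). Of 8 p53 targets, Sesn2, Ddit4 and Bbc3 included, 4 were higher and 4 lower, with Aen and Plk2 up (1.69 and 1.29) and Fas down (-1.52). After median-ratio scaling Plk2 was no longer called (0.09, limma adjusted p = 0.312). NRF2 targets were 4 higher and 2 lower of 6, Sesn2 included, close to the shares of the whole table. Osgin1, Txnrd1 and Srxn1 had log2 fold changes of 1.74, 1.94 and 1.68, and Gstm1 and Sod3 of -0.74 and -0.54. Each was already called in the same direction with particles alone (0.62, 0.95, 0.57, -0.28 and -0.42). Sod3 reached 1 only in the Control libraries, so it passed the filter only through the group where it was high. Under median-ratio scaling Osgin1 and Srxn1 were not called with particles alone (limma adjusted p = 0.0564 and 0.0833), nor Txnrd1 for light on top of particles (0.127). Whether any of these factors acted on the 5 genes was not tested.

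Few markers of other cell types could be read. Of 12 immune and 6 endothelial markers none was among the genes analysed here, and of 9 fibroblast markers 2 were: Col1a1 was between 0.28 and 0.86 in every library, and Postn fell from 4.23 ± 0.379 to 0.523 ± 0.135 between Control and MoS2_NIR. Of 8 markers of 4T1 cells 3 were in the table (Lcn2, Spp1 and Csf3), and Epcam and the keratin genes were not analysed here. Between Control and MoS2_NIR, Lcn2 fell from 399 ± 20.2 to 98.9 ± 8.79 and Spp1 from 1242 ± 43.4 to 560 ± 28.4. Csf3 rose from 63.0 ± 0.878 to 172 ± 34.7, a change not called after median-ratio scaling (limma adjusted p = 0.156). In these bulk libraries, fewer cells with a message and less message per cell cannot be told apart.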

How the data were processed

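Poly(A) RNA of 9 libraries was profiled on an Illumina HiSeq2000. The submitters' processing notes list mm10, HTSeq without a version, Cufflinks 2.1.1 and Bowtie 0.12.9, but not what each was used for, and the strand setting is not given in the sources used here. The authors deposited 1 score per gene and library, standardized per gene. For each gene, values with 2 decimals were sought such that log(value + 1), standardized, returned the 9 scores (tolerance 8e-10). This gave values for 2390 of 2392 genes (99.92%), with at most 1.6e-07 solutions expected by chance, and the search was checked on simulated data. For 9 genes the level is known up to a whole factor only. In 147 genes at least 3 libraries were tied at the lowest score. Searched with no lower limit set, 133 of these had a lowest value of 0. Depth is unknown, so no counting interval is given.

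The 1748 genes with at least 1 in at least 3 libraries were fitted as log2 (value + 1) with limma 3.58.1 in R 4.3.3 (intensity trend, robust, all 9 libraries, 6 residual degrees of freedom), with Benjamini-Hochberg adjusted p over all of them. The fit was checked on simulated data. Alternatives covered 2 scalings, pseudocounts of 0.1 and 5, no filter or a minimum of 5, no trend, no robust step, only the 6 libraries compared, a replicate block, the scores themselves, and each library left out. The 5 genes, the lists and the tests were chosen with earlier results of these data known. For pairs, the values with no pseudocount, the differences under other scalings and the share over all gene pairs were added after seeing the data. Named were the 5 genes, all genes of the pathway lists, at most 4 of each other list by lowest adjusted p, and the 5 genes most like each. Sgk1, Gstm1 and Sod3 were named besides, because they moved against the other genes of their lists. The available gene annotation and promoter sequences are of the rat, and no sequence or position is printed.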

Additional observations from a re-analysis of the deposited data

How the results depend on the processing

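Replicate numbers are shared by the groups, but same-numbered libraries did not deviate together (r from -0.081 to 0.1 over 9 pairs, 0 above 0.1; 4 of 9 libraries were closest to their own number). With the replicate block MoS2 against Control gave 504 higher and 272 lower genes in place of 526 and 294, MoS2_NIR against Control 1111 and 596, and MoS2_NIR against MoS2 1074 and 442, and no call of the 5 genes changed (Stc2 with particles: limma adjusted p = 0.0284).

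Of 570 alternative values, 527 kept their direction and their side of the threshold or, for counts of genes or pairs, stayed within 1.5 times. The filter, trend, robust step and replicate block leave a log2 fold change as it is, as does leaving out a library of the group not compared. Direction could not change there, so this total is no measure of how firm the results are. Median-ratio scaling reversed Trib3 (-0.18) and Ddit4 (-0.29) for MoS2 against Control, brought Aldh1l2 past the threshold there (-0.38) and for MoS2_NIR against MoS2 (-0.68), and ended the calls of Stc2 in both comparisons (0.14 and 0.36). It gave 163 higher and 569 lower genes for MoS2 against Control, 517 higher for MoS2_NIR against Control and 409 higher for MoS2_NIR against MoS2. In the pathway lists together it gave 2 higher in place of 6 and 7 lower in place of 3 with particles, and 4 higher in place of 8 for MoS2_NIR against MoS2. Quantile normalization called Ddit4 with particles (0.43), called Aldh1l2 for MoS2_NIR against MoS2 (-0.56), ended the call of Stc2 with particles (0.30) and gave 674 higher genes for MoS2_NIR against MoS2. The call of Stc2 with particles also ended with a pseudocount of 5 (0.27), without a filter, trend or robust step (0.46 in each) and on the deposited scores (0.68, in standard deviations), on which Aldh1l2 was called for MoS2_NIR against MoS2 (-1.40). A minimum of 5 left 685 higher and 348 lower genes for MoS2_NIR against Control and 666 and 291 against MoS2, from fewer genes tested, and Aldh1l2 had no value. With a pseudocount of 5, 5 pairs did not overlap with particles in place of 8. The cause of these shifts was otherwise not tested.

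With each library left out in turn, Stc2 ranged from 0.41 to 0.52 with particles, Aldh1l2 from -0.43 to -0.27 for MoS2_NIR against Control and from -0.34 to -0.17 against MoS2, and higher genes of the pathway lists with particles from 2 to 6 (3 without MoS2 replicate 1, 2 without replicate 2, 3 without replicate 3). Sesn2 kept its calls in all 3 comparisons under each alternative run.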

Other observations

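In the irradiated libraries Trib3, Stc2 and Aldh1l2 were each highest in MoS2_NIR replicate 1 and lowest in replicate 3, as were Slc1a5 and Slc6a9 among the 10 other pathway genes tested. That is 3 of 5 and 2 of 10, beside 21.3% of all 1748 tested genes, and the pattern was noticed after the values were seen. Sesn2 and Ddit4 were both lowest in replicate 1 there. Numbers only name the libraries, and the pattern was not tested.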
